A study of Mus musculus with 24 samples.

Results

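Both arms of miR-126 and the cluster pair miR-221 and miR-222 were followed in the mouse lung from birth to young adulthood. They are 4 of the 650 miRNA names on the array, and were picked by the names mmu-miR-126-3p, mmu-miR-126-5p, mmu-miR-221 and mmu-miR-222. MicroRNAs (miRNAs) are small RNAs that pair with messenger RNAs and reduce how much protein is made from them. Total RNA of whole lung came from healthy C57BL/6 mice 1, 4, 7 and 14 days after birth, with 5 arrays per age, and at 6 weeks, written here as day 42, with 4 arrays. No genotype or treatment separates the ages, and age is the only factor in the labels. The title of the series calls the lungs fetal, whereas its design text and all its labels place them after birth. Each array is labelled as a biological replicate. The labels do not say how mice were assigned to arrays, so the p-values measure the spread between arrays.

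In mice most alveoli form after birth, while the capillary bed of the lung expands and is remodelled. miR-126 is known from endothelial cells, which line blood vessels, and is carried in an intron of Egfl7, an endothelial gene. Its 3p arm limits Spred1 and Pik3r2, which restrain signalling from VEGF, the growth factor that drives vessel growth, and its 5p arm is known in mice to limit Dlk1 and to favour the division of endothelial cells. miR-221 and miR-222 come from a cluster on the X chromosome and limit Kit and Cdkn1b, a receptor for stem cell factor and an inhibitor of the cell cycle. In cultured human endothelial cells they dampen the response to stem cell factor, but smooth muscle and other cells of the lung make them too.

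The mature sequences are shown because the seed, bases 2 to 8 from the 5′ end and given in capitals, decides which messages a miRNA pairs with. Sequences are from RefSeq (GRCm38.p6), matched for 3 of the 4 members, with the array names miR-221 and miR-222 taken as the 3p arms.
mmu-miR-126-3p: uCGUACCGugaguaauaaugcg
mmu-miR-221: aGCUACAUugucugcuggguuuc
mmu-miR-222: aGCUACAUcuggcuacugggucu
miR-221 and miR-222 share their first 8 bases, seed included, and match at 11 of 23 positions, counted without gaps. In RefSeq, mmu-miR-1928 has the same seed and was not analysed here, and no other mature mouse miRNA of that table has the seed of miR-126-3p. The 3p arm of miR-126 lies at chr2:26591402-26591423 on the plus strand, within the Mir126a hairpin and the span of Egfl7, chr2:26581083-26592682. The hairpin, with the 3p arm in capitals, is the precursor that carries it.
Mir126a hairpin: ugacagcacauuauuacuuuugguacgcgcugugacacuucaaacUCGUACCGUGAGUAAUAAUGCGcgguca
miR-221 lies at chrX:19146307-19146329 and miR-222 at chrX:19146901-19146923, both on the minus strand, and 504 bases separate their hairpins.

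All 4 members were detected on 24 of 24 arrays, with no saturated spot. Values are log2 signals, with arrays scaled to equal 75th percentiles over those 228 miRNAs that every array detected. A difference of 1 on this scale is a doubling of signal. Different probes bind with different strength, so levels are compared between ages and not between miRNAs. Before scaling, this percentile ranged over arrays from 923 to 4953 intensity units and its mean per age, in order of age, was 1539, 1957, 2418, 3239 and 3104, so brightness moved with age. 2 day 1 arrays, replicates 4 and 5, were the dimmest. In whole tissue, fewer cells of a type and less of a miRNA per cell cannot be told apart.

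miR-126-3p was higher at day 14 and day 42 than at day 1, and no further change was detected between day 14 and day 42. Its log2 signals were 15.61, 15.18, 15.34, 14.99 and 15.32 at day 1. They were 15.56, 15.64, 15.74, 15.32 and 15.50 at day 4, and 15.62, 15.60, 15.58, 15.78 and 15.61 at day 7. At day 14 they were 16.18, 16.34, 16.10, 16.02 and 15.82, and at day 42 they were 16.04, 15.95, 15.94 and 16.37. Every array of day 14 and of day 42 lay above every array of day 1, day 4 and day 7, while day 14 and day 42 overlapped. Such separation was common among the 322 miRNAs tested. It held for 35.4% between day 14 and day 1, 39.8% between day 42 and day 1 and 37.0% between day 14 and day 7. For the other pairs of ages it was not counted. Over the 5 ages the difference passed limma's F-test (adjusted p = 2.71e-05), as it did for 65.5% of the 322 miRNAs tested.

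Day 42 lungs carried 1.73-fold the miR-126-3p signal of day 1 lungs, with a 95% interval of 1.42 to 2.10. On the log2 scale this is 0.79 ± 0.14 (SE; n = 4 and 5; limma's adjusted p = 2.86e-05). Day 14 against day 1 gave 0.80 ± 0.13 (limma's adjusted p = 1.41e-05). The step that passed the test was day 14 against day 7, at 0.45 ± 0.13 (limma's adjusted p = 0.00769), whereas day 4 against day 1 gave 0.26 ± 0.13 (limma's adjusted p = 0.302), day 7 against day 4 gave 0.09 ± 0.13 (0.744) and day 42 against day 14 gave -0.02 ± 0.14 (0.958). With quantile normalization, which forces all arrays to the same distribution, day 42 against day 1 was 0.08 (limma's adjusted p = 0.492). Day 14 was 0.046 against day 1 (limma's adjusted p = 0.69) and against day 7 (0.759). That method sets each value by its rank on the array, so it shows a change only where the rank changed. miR-126-3p gave 12926 to 149863 unscaled units, where the percentile used for scaling was 923 to 4953, so it lay above that percentile on every array. Its rank on each array was not examined, so why these calls were lost was not tested. With normexp background correction, day 14 against day 7 was 0.40 (limma's adjusted p = 0.34), while both later ages against day 1 stayed past the threshold. In the deposited table, whose columns share a median of 2.41, miR-126-3p takes 6 distinct values over the 24 arrays. From that table day 42 against day 1 was 0.81, past the threshold.

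**Figure D1:**
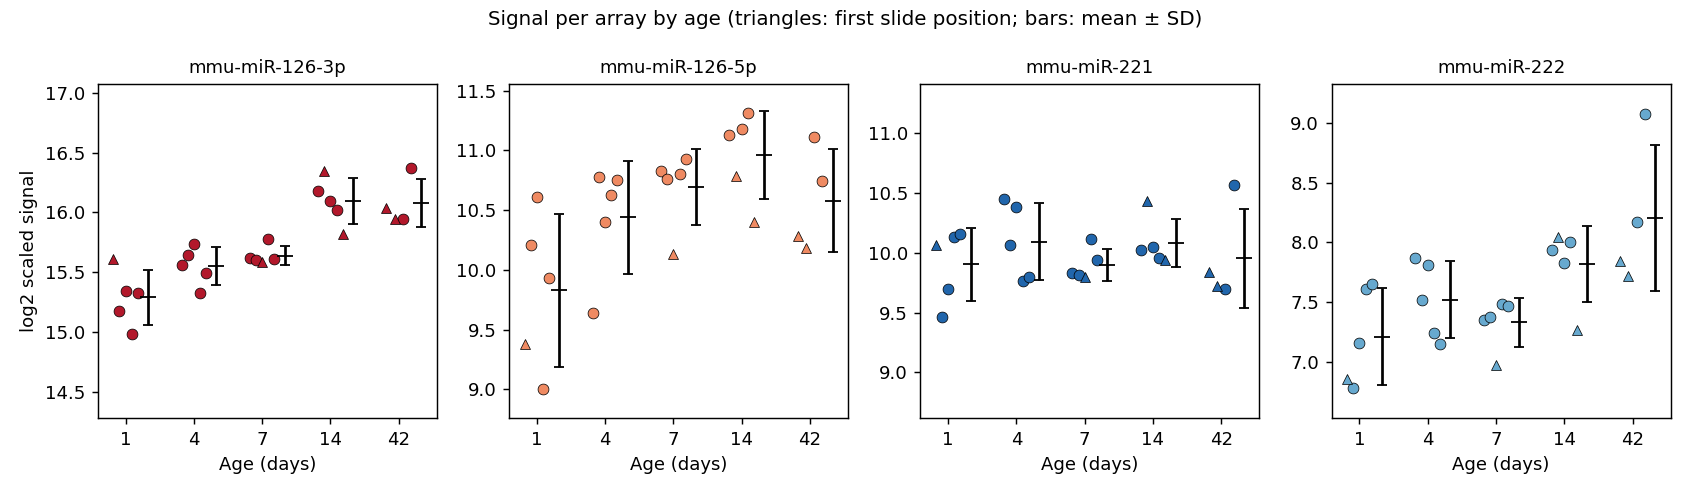
Log2 scaled signal of each member on each array (points) against age in days, with the mean and SD of the age beside them. Triangles mark arrays with position number 1 on their slide. miR-126-3p stands higher at day 14 and day 42 than at the 3 earlier ages, and miR-221 shows no such step.

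The other arm, miR-126-5p, varied more between arrays. Its log2 signals were 9.38, 10.21, 10.61, 9.005 and 9.93 at day 1. They were 9.64, 10.78, 10.40, 10.63 and 10.76 at day 4 and 10.83, 10.76, 10.14, 10.80 and 10.93 at day 7. At day 14 they were 11.13, 10.79, 11.18, 11.31 and 10.40, and at day 42 they were 10.28, 10.18, 11.11 and 10.75. The lowest arrays belong to day 1, 4 of 5 arrays of day 14 lay above all arrays of day 1, and 2 of 4 arrays of day 42 did.

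miR-126-5p rose to 2.19-fold its day 1 signal at day 14, 1.13 ± 0.28 on the log2 scale (limma's adjusted p = 0.00176). When array brightness entered the fit, that difference was 0.54 and no longer called (limma's adjusted p = 0.173). At day 42 it stood 0.75 ± 0.30 above day 1 (limma's adjusted p = 0.0322), a call that was lost in the fit without day 42 replicate 3 (0.58; adjusted p = 0.125), without day 42 replicate 4 (0.70; 0.0685), without day 1 replicate 1 (0.64; 0.0821) or without day 1 replicate 4 (0.55; 0.104), and in the fit without both dim arrays (0.51; 0.175). With brightness in the fit it was 0.21 (limma's adjusted p = 0.604). None of the 4 consecutive steps passed the test for miR-126-5p, the largest of them being day 4 against day 1 at 0.61 ± 0.28 (limma's adjusted p = 0.279).

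Part of the spread of miR-126-5p lay in single spots. Each member has 2 probes of 10 spots each. Per the file headers, each slide has 2 arrays of each position number, 1 to 4. On the 6 arrays with position number 1, called first-position arrays here (day 42 replicates 1 and 2, day 14 replicates 2 and 5, day 7 replicate 3 and day 1 replicate 1), 3 spots of the miR-126-5p probe A_54_P1035, in array columns 4, 20 and 24, gave 0.073 to 0.569 times the probe's median, against 0.514 to 1.13 times on the 18 other arrays. The spots of that probe had a coefficient of variation of 52.4% to 59.1% on first-position arrays and of 2.83% to 15.3% on the others. Over the 2534 spots of miRNA probes whose median signal passed 40 on every array, 23 spots of 18 miRNAs had a median over first-position arrays under 0.5 times their probe's median, and 0 had one over the other arrays, 19 of the 23 in an array column divisible by 4, where 25.1% of the spots lie. The other 3 members had 0 low spots. Spots of the miR-222 probe A_54_P2644 ranged from 0.81 to 1.41 times the probe median over first-position arrays, against 0.94 to 1.04 over the others. Their coefficient of variation was 10.1% to 24.1% on first-position arrays and 1.64% to 16.0% on the others. A count of low spots leaves out high ones. The probes A_54_P4367 of miR-126-5p and A_54_P2643 of miR-222 were too dim for that count, and their lowest spots stood at 0.775 and 0.834 times the probe median over the first-position arrays. Without the low spots miR-126-5p differed by 0.87 between day 42 and day 1 (limma's adjusted p = 0.00481), and with array position as a block by 0.88 (0.00522). Those alternatives were chosen after seeing the data.

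**Figure D2:**
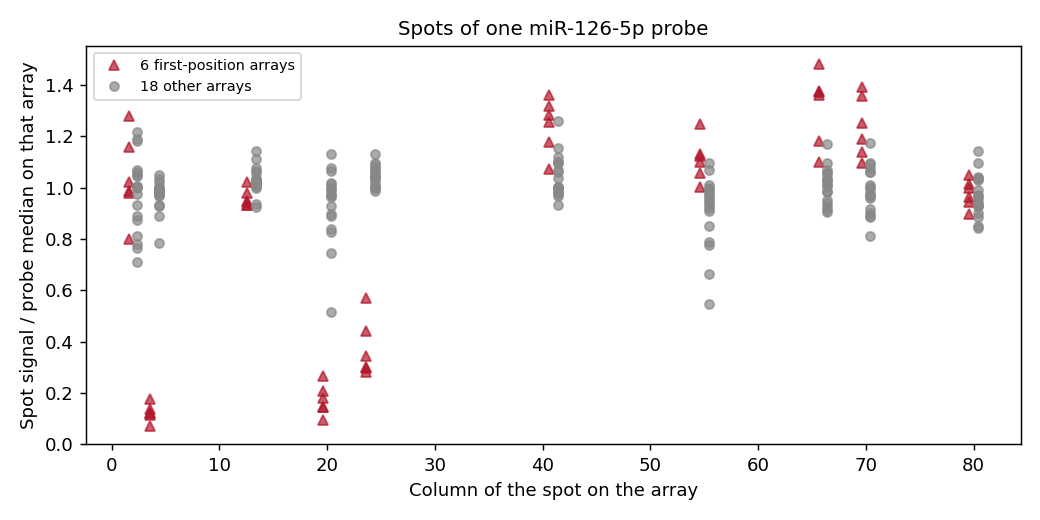
Signal of each spot of the miR-126-5p probe A_54_P1035, divided by the probe's median on the same array, against the spot's column on the array. Triangles are the 6 first-position arrays and circles the 18 others. The spots in columns 4, 20 and 24 are low on the first-position arrays, with a highest value of 0.569.

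miR-221 did not pass a test in any comparison. Its log2 signals were 10.07, 9.46, 9.70, 10.13 and 10.16 at day 1. Over the 5 arrays each they ranged from 9.76 to 10.45 at day 4, from 9.80 to 10.11 at day 7 and from 9.94 to 10.43 at day 14. At day 42 they were 9.84, 9.72, 9.70 and 10.57, of which replicate 4 lay above all arrays of day 1 and the other 3 within their range. Day 42 against day 1 gave 0.05 ± 0.19 (limma's adjusted p = 0.824), with a 95% interval from -0.35 to 0.45, and the F-test over ages gave an adjusted p of 0.728. This outcome depends on the scaling: day 42 against day 1 came to 0.71 with arrays scaled on all names (limma's adjusted p = 0.00434), 1.06 without scaling, 0.57 with brightness as a covariate (0.0023) and -0.15 without day 42 replicate 4.

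miR-222, from the same cluster and with the same seed, rose. Its log2 signals were 6.86, 6.78, 7.16, 7.61 and 7.65 at day 1. They were 7.87, 7.52, 7.81, 7.25 and 7.15 at day 4 and 7.35, 7.38, 6.98, 7.48 and 7.47 at day 7. At day 14 they were 7.94, 8.05, 7.83, 8.01 and 7.27, and at day 42 they were 7.85, 7.72, 8.17 and 9.08. All 4 arrays of day 42 lay above all 5 arrays of day 1, and 4 of 5 arrays of day 14 did, with replicate 4 of day 42 the highest. Day 42 and day 1 did not overlap for 39.8% of the 322 miRNAs tested.

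Day 42 lungs carried 1.99-fold the miR-222 signal of day 1 lungs (95% interval 1.39 to 2.85), 0.99 ± 0.25 on the log2 scale (limma's adjusted p = 0.00153). Without day 42 replicate 4 the difference was 0.70 and still past the threshold. Day 14 against day 1 gave 0.61 ± 0.24 (limma's adjusted p = 0.0341), which was lost in 7 of the 24 fits that leave out 1 array, with values of 0.50 to 0.74 over all of them. No consecutive step passed the test. miR-222 gave 78.0 to 487 unscaled intensity units, and its rise was not seen with normexp, where day 42 against day 1 was -0.19 (limma's adjusted p = 0.66). That alternative starts from the median spot and background signals and adds an offset of 50 to each spot, and which of these steps moved the value was not tested.

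3 of the 4 members rose at day 42 against day 1 and 0 fell, where 61.8% of the 322 tested miRNAs were called, 18.9% as rises and 42.9% as falls. The arrays of day 42 and day 1 did not overlap for 2 of the members and for 39.8% of tested miRNAs. At day 14 against day 1, 3 members rose, where 53.7% of tested miRNAs were called and 21.1% as rises, and the arrays of 1 member did not overlap, as for 35.4% of tested miRNAs. At day 14 against day 7, 1 member was called, where 31.4% of tested miRNAs were, and its arrays did not overlap, as for 37.0% of them. No member was called by limma for day 4 against day 1, day 7 against day 4 or day 42 against day 14, where 1.55%, 0.311% and 32.6% of tested miRNAs were. Before adjustment, limma's p for miR-126-5p at day 4 against day 1 was 0.0398, and no other member passed 0.05 in those comparisons.

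**Figure D3:**
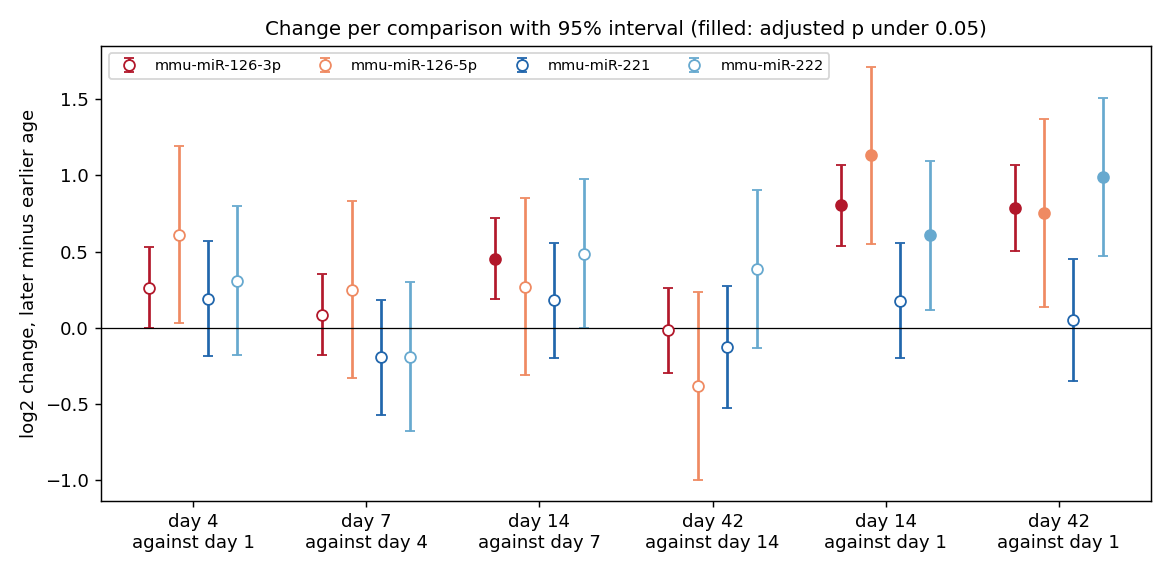
Log2 change of each member in each comparison, later minus earlier age, with its 95% interval. Filled points passed an adjusted p under 0.05. The filled points are miR-126-3p at day 14 against day 7, and miR-126-3p, miR-126-5p and miR-222 at day 14 and day 42 against day 1.

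The median of all 322 tested miRNAs differed by -0.35 between day 42 and day 1 with the scaling used here, by 0.30 with the 75th percentile over all names, by 0.01 with median scaling and by 0.64 without scaling. The called miRNAs split into 61 rises and 138 falls, 125 and 78, 96 and 91, and 145 and 58 under those scalings. These scalings shift all miRNAs of an array alike, so a member's difference from that median is nearly the same under each: with the scaling used here it was 1.14 for miR-126-3p, 1.105 for miR-126-5p, 0.41 for miR-221 and 1.35 for miR-222. Where arrays are not merely shifted, or brightness enters the fit, it moved. In the deposited table it was 0.50 for miR-126-3p, 0.47 for miR-126-5p, -0.049 for miR-221 and 1.27 for miR-222. In the same order it was -0.11, 0.61, 0.045 and 1.37 with quantile normalization. With normexp it was 2.17, 1.73, 1.03 and 0.99, and with brightness as a covariate 1.01, 0.33, 0.69 and 1.67.

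**Figure D4:**
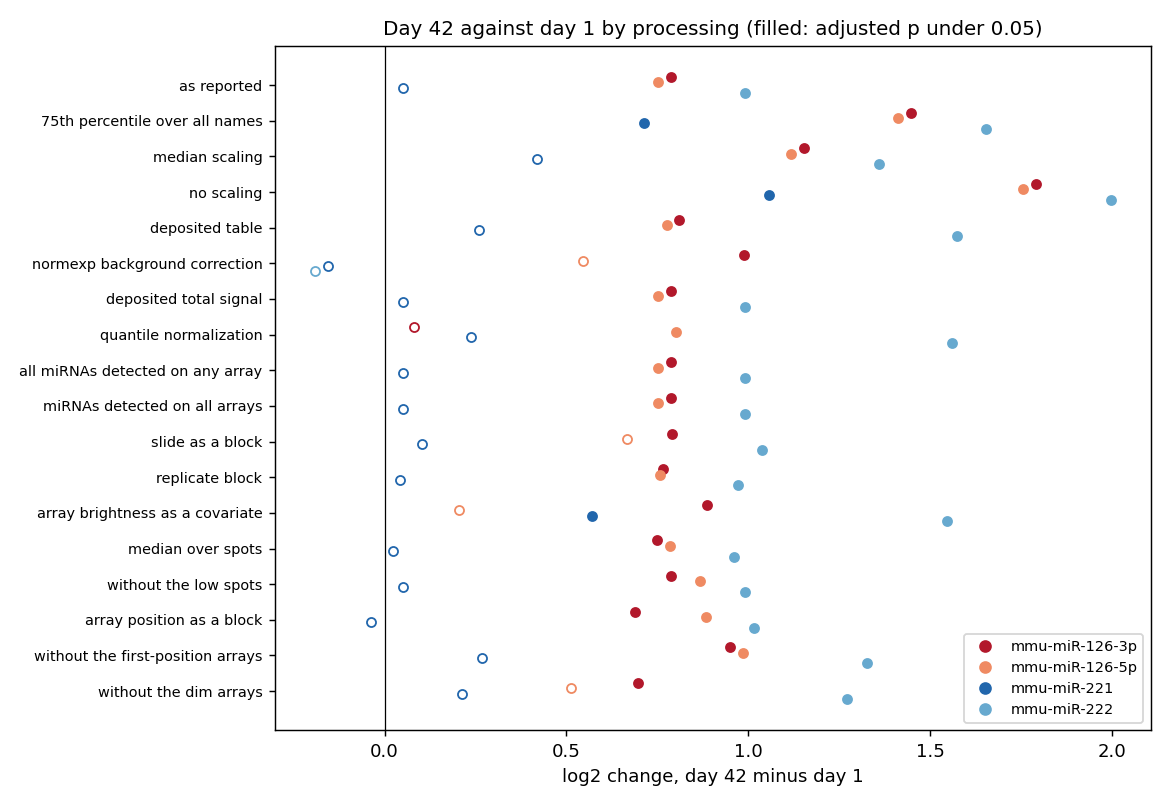
Log2 change of each member, day 42 minus day 1, under each processing alternative that keeps the members' summed probes. Filled points passed an adjusted p under 0.05. miR-222 lies below 0 with normexp alone, and miR-126-3p misses the threshold with quantile normalization alone, which sets values by rank.

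The 24 arrays lie on 3 slides of 8 that each hold all 5 ages. Within the slides, miR-126-3p differed between day 42 and day 1 by 0.65, 0.82 and 1.03, miR-126-5p by 0.99, 0.48 and 0.47, miR-222 by 0.48, 1.23 and 1.68, and miR-221 by -0.38, 0.30 and 0.64. The direction was the same on all 3 slides for the first 3 of these and not for miR-221. Each of these differences rests on 1 array of 1 age and 2 arrays of the other. With the slide as a block, the miR-126-5p difference was 0.67 (limma's adjusted p = 0.054).

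Ratios of 2 members on the same array do not depend on the scaling, and they ask whether the partners changed alike. The log2 ratio of miR-222 to miR-221 was -1.99, -1.999, -1.52 and -1.49 at day 42, against -3.20, -2.68, -2.54, -2.52 and -2.51 at day 1. Day 42 lay above day 1 on every array. The ratio averaged -1.75 ± 0.28 at day 42 and -2.69 ± 0.30 at day 1 (SD, n = 4 and 5), a difference of 0.94 (exact permutation test, two-sided, p = 0.0159, the smallest these numbers of arrays allow; 0.0317 after adjustment over 2 ratios). At days 4, 7 and 14 the ratio averaged -2.57, -2.57 and -2.26. With normexp the difference was -0.04 (exact permutation, adjusted p = 0.984). In each of the 4 ages that have a first-position array, the lowest ratio was on such an array; without them the difference was 1.06, from 2 arrays of day 42 and 4 of day 1. The part of position in the ratio was not tested beyond this.

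The log2 ratio of miR-126-3p to miR-126-5p averaged 5.50 ± 0.44 at day 42 and 5.46 ± 0.64 at day 1 (SD, n = 4 and 5). The 4 arrays of day 42 gave 5.76, 5.76, 4.84 and 5.62, and the 5 arrays of day 1 gave 6.24, 4.97, 4.73, 5.98 and 5.39. The groups overlapped, and the difference of 0.04 was not detectable against this spread (exact permutation test, two-sided, p = 0.921, also after adjustment). Its standard error of 0.36 leaves room for unequal change of the arms. In each of the 4 ages that have a first-position array, the highest ratio was on such an array.

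**Figure D5:**
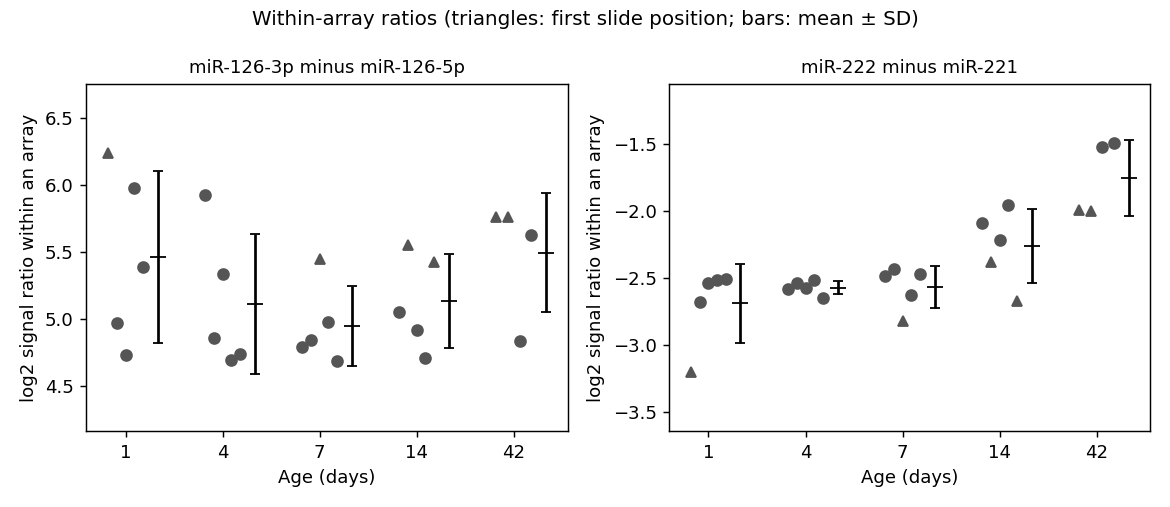
Log2 ratio of 2 members within each array against age in days, with the mean and SD of the age. Triangles mark first-position arrays. The ratio of miR-222 to miR-221 is higher on every day 42 array than on every day 1 array, while the ratio of the miR-126 arms overlaps between these ages.

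The miRNAs with the most similar course were found by the root mean square difference of the 5 age means, each centred, over the 228 miRNAs detected on all arrays. Closest to miR-126-3p were mmu-miR-26b, mmu-miR-194 and mmu-miR-31, at 0.059, 0.063 and 0.065 log2 units. Closest to miR-126-5p were mmu-miR-497, mmu-miR-30e and mmu-miR-15a, at 0.10, 0.11 and 0.12. Closest to miR-222 were mmu-let-7b, mmu-let-7c and mmu-miR-99a, at 0.037, 0.059 and 0.10, and closest to miR-221 were mmu-miR-30e*, mmu-let-7d and mmu-miR-145, at 0.044, 0.056 and 0.088. By this measure the partners of the same precursor or cluster were not each other's nearest. miR-126-5p ranked 35th for miR-126-3p, and miR-126-3p ranked 15th for miR-126-5p. miR-221 ranked 66th for miR-222, and miR-222 ranked 128th for miR-221. The spread between arrays does not enter these ranks. The arms differed by 0.21, where miR-126-5p had an SD of 0.64 over the 5 arrays of day 1.

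Other miRNAs known from vessels did not move one way. Of 23 listed, 22 were tested, and between day 42 and day 1 8 rose and 12 fell, with a median of -0.71 against -0.35 over all tested miRNAs, of which 18.9% rose and 42.9% fell. The largest rises were mmu-miR-100, at 1.39 ± 0.19 (limma's adjusted p = 1.4e-06), mmu-miR-10a, at 0.88 ± 0.20 (0.000583), and mmu-miR-27a, a member of the miR-23/27/24 clusters, at 0.76 ± 0.25 (0.0119). The largest falls were mmu-miR-296-5p, at -3.17 ± 0.28 (8.61e-10), mmu-miR-18a of the miR-17 cluster, at -2.11 ± 0.28 (limma's adjusted p = 5.94e-07), and mmu-miR-503, at -1.80 ± 0.37 (0.000194).

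The tissue label could be checked only through miRNAs. Both defining endothelial markers, miR-126-3p and miR-126-5p, are members and were detected on every array. Markers of other cell types moved with age beside them. Of 6 leukocyte miRNAs, 6 rose between day 42 and day 1, and their summed scaled signal was 13059 to 16286 at day 42, against 5131 to 8884 at day 1. Of 3 fibroblast miRNAs, 3 fell, with sums of 8431 to 10406 at day 42, against 16038 to 21823 at day 1. Of 5 epithelial miRNAs, 1 rose and 0 fell, with sums of 15000 to 17265 at day 42, against 12699 to 16291 at day 1. None of 2 smooth muscle and pericyte miRNAs and none of 3 red blood cell miRNAs was called in that comparison, and of 4 striated muscle miRNAs 1 fell. Over all tested miRNAs, 18.9% rose and 42.9% fell. The summed striated muscle signal was 1238 to 3968 at day 42, against 367 to 38306 at day 1, where its median was 862. At least 1 array of day 1 thus held far more striated muscle signal than most arrays of its age. At day 14 against day 1, 4 of the leukocyte miRNAs rose, as did 1 each of the epithelial, smooth muscle and pericyte (mmu-miR-143, at 0.51 ± 0.15) and red blood cell (mmu-miR-451, at 0.80 ± 0.23) miRNAs, and all 3 of the fibroblasts fell, where 21.1% of tested miRNAs rose and 32.6% fell. The summed red blood cell signal was 59573 to 94350 at day 14, against 24340 to 66027 at day 1, and that of leukocytes 7779 to 12877 at day 14, against 5131 to 8884 at day 1. At day 14 against day 7, mmu-miR-486 of red blood cells rose by 0.98 ± 0.26, 2 leukocyte miRNAs rose and 2 fibroblast miRNAs fell. Of the 322 tested miRNAs, 24 rose and 77 fell in that comparison. Of 39 virus miRNA names on the array, listed to gauge unspecific signal, 32 were detected on no array and 3 entered the tests. None of these 6 cell type lists had a member undetected on all arrays of day 42 or of day 1. The part of these cell types in the members' changes was not tested.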

How the data were processed

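Per the file headers, the scanner images of the 24 1-colour (Cy3) arrays went through Agilent Feature Extraction, version 10.7.1.1, also named in the submitters' processing notes. The deposited intensity values are background-subtracted spot signals with no adjustment between arrays. The deposited table holds log2 values whose columns share a median of 2.41. How the authors made it is not given in the sources used here. Spot signals of a probe were averaged without outlier spots (319 to 523 per array) and probes of a miRNA summed. Each array was divided by its 75th percentile over 228 miRNAs that every array detected. It was then multiplied by 2316, the median of that percentile over arrays. Values were floored at 7.46 and log2 taken. Of 650 names, 322 were tested with limma 3.58.1 (R 4.3.3) over all 24 arrays, with Benjamini-Hochberg adjustment over them and a threshold of 0.05. The fit was tested on simulated data. Ratios were tested with exact permutation tests (scipy). normexp used the median spot and background signals. Errors after ± are standard errors unless SD is named. The members and lists were chosen with earlier results of these data known. Other named miRNAs are, per member, the 3 nearest in course, those sharing a seed, and the 3 largest called rises and falls of the vessel list.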

Additional observations from a re-analysis of the deposited data

Results flagged for a closer look

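Of 30 sets of arrays of 1 age checked, 4 members and 2 ratios at 5 ages, 8 held an array whose gap to the nearest other array of its age was a larger share of the age's whole range than Dixon's 95% critical value. By that level chance would flag about 1 in 20 sets, but the sets are not independent, since the ratios use the members' values. For miR-126-3p, day 7 replicate 4 was at 15.78, with the others from 15.58 to 15.62. For miR-126-5p, day 7 replicate 3, a first-position array, was at 10.14, with the others from 10.76 to 10.93. For miR-221, day 14 replicate 2 was at 10.43, with the others from 9.94 to 10.05, and day 42 replicate 4 was at 10.57, with the others from 9.70 to 9.84. For miR-222, day 7 replicate 3 was at 6.98, with the others from 7.35 to 7.48, and day 14 replicate 5 was at 7.27, with the others from 7.83 to 8.05. The log2 ratio of miR-126-3p to miR-126-5p was 4.84 on day 42 replicate 3, with the others from 5.62 to 5.76. The log2 ratio of miR-222 to miR-221 was -3.20 on day 1 replicate 1, with the others from -2.68 to -2.51.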

How the results depend on the processing

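The results are the F-test and 6 comparisons of each member and the 2 ratios. Leaving aside fits without 1 array, 481 of their values under alternatives kept direction and side of the threshold, 17 lost the call with the same sign, 19 gained one and 25 changed sign, of which 3, all of miR-222 with normexp, lost a call too; the cause was not tested unless given. Values are log2 changes, or F for the F-test.

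With quantile normalization, which sets values by rank, miR-126-3p lost its calls over ages (0.26) and at day 14 against day 7 (0.046). It also lost those at day 42 (0.080) and day 14 (0.046) against day 1, and was 0.034 at day 42 against day 14. With the same method miR-221 was 0.21 at day 42 against day 14 and miR-222 0.74, called, at day 14 against day 7. With normexp, miR-126-5p lost its calls over ages (3.63) and at day 42 against day 1 (0.55), miR-126-3p at day 14 against day 7 (0.40) and miR-222 over ages (1.08); day 42 against day 1 was -0.15 for miR-221 and -0.19 for miR-222, miR-222 was -0.082 at day 14 and -0.44 at day 4 against day 1 and -0.11 at day 42 against day 14, miR-126-3p was 0.048 there, and the ratio of miR-222 to miR-221 was -0.037. With brightness as a covariate, miR-126-5p lost its calls over ages (1.29), at day 42 (0.21) and at day 14 (0.54) against day 1; miR-221 gained calls over ages (6.36), at day 42 (0.57), day 14 (0.74) and day 4 (0.38) against day 1 and at day 14 against day 7 (0.37), and miR-222 at day 14 against day 7 (0.69), with 0.0046 at day 7 against day 4.

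With the 75th percentile over all names, miR-221 gained calls over ages (5.02), at day 42 (0.71) and day 14 (0.56) against day 1 and at day 14 against day 7 (0.54), and miR-222 at day 14 against day 7 (0.85); day 42 against day 14 was 0.26 for miR-126-3p and 0.15 for miR-221. Without scaling, miR-221 gained them at 13.9, 1.06, 1.27 and 0.55 and miR-222 at 0.86, and day 7 against day 4 was 0.16 for miR-221 and 0.16 for miR-222. With median scaling, day 42 against day 14 was 0.22 for miR-126-3p and 0.11 for miR-221; the deposited table gave 0.21 for miR-221.

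Of the alternatives chosen after seeing the data, leaving out the dim arrays ended the miR-126-5p calls over ages (2.45) and at day 42 against day 1 (0.51), and the slide as a block, a planned one, ended the latter call too (0.67). With position as a block, miR-221 was -0.037 at day 42 against day 1, miR-126-3p -0.044 at day 7 against day 4 and miR-222 0.60, called, at day 14 against day 7. Without first-position arrays, day 42 against day 14 was 0.058 for miR-126-3p and 0.12 for miR-221, and the ratios were -0.037 for the arms and 1.06 for miR-222 to miR-221, where no call is possible (smallest p 0.133). The arms' ratio was -0.034 with the median over spots and -0.081 without the low spots. Day 14 against day 1 for miR-222 lost its call with the median over spots (0.57) and with the probe A_54_P2644 (0.59), the probe A_54_P2643 gained the call at day 14 against day 7 (0.56), and the probe A_54_P2640 gave -0.059 for miR-221 at day 42 against day 1.

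Leaving out 1 array, miR-126-5p ranged from 3.16 to 6.39 over ages and from 0.55 to 0.95 at day 42 against day 1, miR-221 there from -0.15 to 0.14, miR-222 from 0.50 to 0.74 at day 14 against day 1 and from 0.40 to 0.62 at day 14 against day 7, miR-126-3p from -0.11 to 0.046 at day 42 against day 14, the arms' ratio from -0.15 to 0.26 and the ratio of miR-222 to miR-221 from 0.81 to 1.02. The ratio of miR-222 to miR-221 lost its call in 9 of 9 such fits. Its exact permutation p was 0.0286 or 0.0357 in them, the smallest those numbers of arrays allow. After adjustment over 2 ratios it was 0.0571 to 0.0714.

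No pairing by replicate number was seen. Deviations of same-numbered arrays correlated at a median of -0.022 over 46 pairs, with a range of -0.86 to 0.84. Arrays with other numbers gave -0.011 over 184 pairs, with a range of -0.92 to 0.90. Correlations this wide do not show that the samples were unpaired. With the replicate block, day 42 against day 1 was 0.77 for miR-126-3p, 0.76 for miR-126-5p, 0.04 for miR-221 and 0.97 for miR-222, and no call of the members changed.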
